A study of Mus musculus with 232 samples.

Results

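The comparison described here sets single Dgcr8-/- mouse embryonic stem cells transfected with a miR-294 mimic against mock-transfected Dgcr8-/- cells. Cells were placed in a condition by the genotype given for each sample, which put 58 miR-294 cells and 60 mock cells in the comparison, 118 cells in all, beside 64 cells of the other conditions. Of the 58 cells, 55 carry a title beginning miRNA294 and 3 a title beginning MIR_294, and the same genotype is given for both. The mock cells are Dgcr8-/- and carry no added miRNA, the transfected cells are Dgcr8-/- and carry the mimic, and both were grown with LIF and the MEK and GSK3 inhibitors PD0325901 and CHIR99021 (2i) and captured 24 h after transfection with the reagent DharmaFECT 1. Those others, 48 transfected with a let-7 mimic and 16 wild type V6.5 cells, are used only as side values. Each condition was captured on its own microfluidic circuit and no separate cultures are named, so each condition counts as 1 sample, the cells are not replicates of the condition, and condition and circuit cannot be told apart. No test was therefore made, and differences are given as values with their spread over cells.

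Dgcr8 is the RNA-binding partner of the nuclease Drosha and is needed to cut most primary miRNA transcripts. Cells without it keep few mature miRNAs and cycle slowly, with a delay in entering S phase. miR-294 belongs to the miR-290 to miR-295 cluster, which is the dominant miRNA cluster of mouse embryonic stem cells and is known for releasing that block by lowering inhibitors of cyclin E-CDK2 activity. A miRNA guides Argonaute proteins to mRNAs through its seed, and the paired mRNA is translated less and degraded.

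The mature strand of the mimic is shown with cluster and family members that share its seed, since a site for one is a site for all. Capitals mark the seed, bases 2 to 8, and sequences are those of RefSeq for GRCm38.
miR-294-3p (chr7:3220691-3220712, plus strand): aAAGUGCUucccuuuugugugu
miR-291a-3p (chr7:3218968-3218989, plus strand): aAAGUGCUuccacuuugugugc
miR-295-3p (chr7:3220815-3220837, plus strand): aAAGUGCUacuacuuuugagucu
miR-302b-3p (chr3:127545275-127545297, plus strand): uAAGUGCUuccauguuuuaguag
miR-294-5p, the other arm of the hairpin (chr7:3220655-3220676, plus strand): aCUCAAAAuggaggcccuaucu
The first 4 share the seed AAGUGCU, and the other arm does not.

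The total count of a cell ranged from 940705 to 3302756 (median 1435139) after miR-294 and from 514728 to 3564131 (median 1574732) in mock cells. In miR-294 cells 20 and 21, counts differed by a chi-square per gene of 2.80. This was somewhat above repeat runs of a single miR-294 cell (1.28 to 2.31), while the next closest pair reached 50.3. They were counted as 1 cell with their mean counts, leaving 57 miR-294 cells. Markers of embryonic stem cells (Pou5f1, Sox2, Nanog, Zfp42, Esrrb and Dppa5a) summed to 2420 to 9439 counts scaled to a library total of 1000000 (CPM) in miR-294 cells and to 670 to 7301 CPM in mock cells. Mock cells 3, 78 and 96 stood apart at the low end, with 670, 745 and 1974 CPM against 2504 CPM or more in the others. Several list medians and genes that they move are given without them as well. Of 7 markers of feeder fibroblasts, Col3a1, Col1a2, Postn and Lum were at 0 in both groups, and the summed level did not pass 24.8 CPM in any miR-294 cell or 4.98 CPM in any mock cell. Of 6 markers of primitive endoderm, Gata6, Sox17 and Pdgfra were at 0 in both groups, and the sum reached at most 70.03 CPM after miR-294 and 115 CPM in mock cells. Reads of Dgcr8 remained, at 35.2 CPM in mock cells, 46 CPM after miR-294 and 118 CPM in wild type cells, and counts per gene do not separate the deleted part.

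Twf1, Dazap2, Scpep1 and Cdkn1a, the marker genes given for the comparison, were all lower after miR-294. Twf1, which encodes the actin monomer-binding protein twinfilin, had 567, 1605 and 3125 CPM in the lowest, median and highest mock cell and 16.3, 540 and 1235 CPM after miR-294. Its level over the pooled cells was 1579 CPM (95% Poisson interval 1572 to 1587) in mock cells and 552 CPM (547 to 557) after miR-294, a log2 ratio of -1.52. The groups overlapped, but all 57 miR-294 cells lay below the mock median. Dazap2, a small proline-rich adaptor protein, ranged from 7.55 to 1054 CPM (median 574) in mock cells and from 0 to 335 CPM (median 53.8) after miR-294. Its pooled level was 570 CPM against 76.9 CPM (log2 ratio -2.89), and again 57 of 57 cells were below the mock median. Scpep1, a serine carboxypeptidase of the lysosome, ranged from 13.8 to 1502 CPM (median 545) in mock cells and from 1.31 to 500 CPM (median 163) after miR-294, and its log2 ratio was -1.90 with 57 of 57 cells below the mock median. Cdkn1a, the cyclin-dependent kinase inhibitor p21, ranged from 0 to 1204 CPM (median 144.5) in mock cells and from 0 to 251 CPM (median 25.5) after miR-294. It was the most dispersed of the 4, with a pooled level of 206 CPM against 45.2 CPM (log2 ratio -2.19) and 54 of 57 cells below the mock median. The pooled levels in the 16 wild type cells were 585 CPM for Twf1, 126.5 CPM for Dazap2, 242 CPM for Scpep1 and 44.2 CPM for Cdkn1a, which were in each case nearer to the miR-294 cells than to the mock cells. In the let-7 cells they were 1324, 383, 572 and 237 CPM. The authors had removed 1 miR-294 cell in which the known targets were not lower, so the cells were partly selected on genes of this kind. Poisson intervals cover counting error only, since reads were not counted by molecule.

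**Figure D1:**
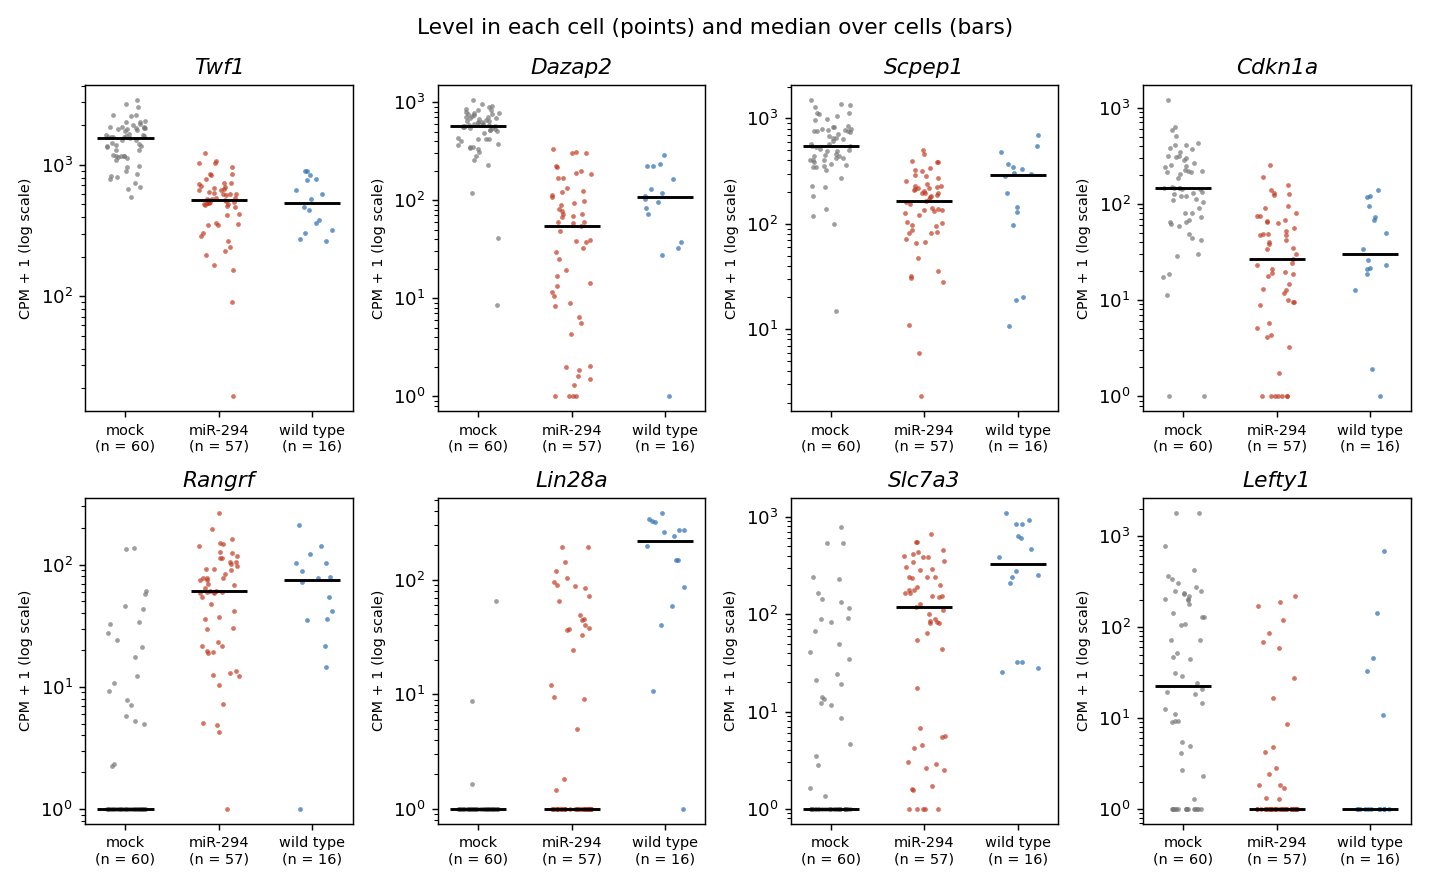
Each point is a cell, plotted as CPM plus 1 on a log axis for 8 genes, with mock (n = 60), miR-294 (n = 57) and wild type (n = 16) cells side by side and a bar at the median. Twf1, Dazap2, Scpep1, Cdkn1a and Lefty1 lie lower after miR-294, and Rangrf, Lin28a and Slc7a3, which many mock cells lack, lie higher.

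Each of the 4 genes holds at least 1 match to the seed in its 3′ UTR, and 30 bases around a match are shown because the match is what the mimic would pair with. Capitals mark AGCACTT, the reverse complement of bases 2 to 8, and positions are on GRCm38, from Gencode M21.
Twf1 (chr15:94579684-94579713, minus strand): tttttgaaaaatAGCACTTttcacttctat
Dazap2 (chr15:100619530-100619559, plus strand): tcacataccttcAGCACTTctcacaatgta
Scpep1 (chr11:88924370-88924399, minus strand): catgtaaatccaAGCACTTgagaggtagaa
Cdkn1a, second of 2 matches (chr17:29100488-29100517, plus strand): cgtgggtgtcaaAGCACTTagtgggtctga
Lefty1 (chr1:180938201-180938230, plus strand): cactgtatgcgaAGCACTTacatgtataga
Casp2 (chr6:42281546-42281575, plus strand): atataacctagaAGCACTTgtctctgctct
In Cdkn1a and Lefty1 the match is followed by an A, which makes the 8-letter site AGCACTTA. Lefty1 and Casp2 are described below.

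Across the 11186 genes whose count averaged 5 or more per cell, 1715 (15.3%) were at least 2-fold lower in pooled CPM after miR-294 and 929 (8.31%) at least 2-fold higher. At 1.5-fold the counts were 2971 (26.6%) lower and 1971 (17.6%) higher. The median log2 ratio of all genes was -0.06. Few of these genes were abundant. Of 2986 genes with a mean level under 10 CPM, 819 were 2-fold lower and 545 2-fold higher. Of 6161 genes from 10 to 100 CPM, 839 were 2-fold lower and 359 2-fold higher. Of 2039 genes with at least 100 CPM, 57 were 2-fold lower and 25 2-fold higher. A 2-fold difference in a gene of at least 100 CPM was therefore much rarer than the percentages over all genes. Those percentages rest mainly on genes under 100 CPM.

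Genes that were lower carried seed matches more often than the others. A 3′ UTR could be read for 10309 of the genes, and 16.2% of them held AGCACTT on the mRNA strand. The share was 24.4% of the 1556 genes lower by 2-fold, 15.0% of the 7897 genes between the thresholds and 11.8% of the 856 genes higher by 2-fold. 3′ UTRs of lower genes were also longer (median 1231 bases against 956 between the thresholds), so the shares were read within 3 classes of UTR length that held equal numbers of genes, parted at 564 and 1609 bases. In the shortest class the shares were 5.29%, 2.99% and 1.99% in the same order. In the middle class they were 20.6%, 11.3% and 9.43%, and in the longest class 40.6%, 31.7% and 26%. The order was thus the same in each class. The seed match of the other arm, TTTTGAG, was held by 19.5% of the lower genes, 19.5% of those between and 16.8% of the higher ones, so for that arm lower genes and those between did not separate.

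Genes with more matches had lower log2 ratios. The median was -0.02 over 8642 genes without AGCACTT, -0.26 over 1345 genes with 1 match, -0.43 over 248 genes with 2 and -0.44 over 74 genes with 3 or more. The share lower by 2-fold was 13.6%, 21.1%, 27% and 39.2% in these groups, whose median UTR length went from 818 bases without a match to 5438 bases with 3 or more. Among the 351 genes with the 8-letter site the median was -0.54, and 30.2% were lower by 2-fold. Genes with at least 50 CPM showed the same order up to 2 matches, with 3.63%, 11.1% and 19% lower by 2-fold, while of 17 such genes with 3 or more matches 1 was lower. Of the genes lower by 2-fold, 1176 of 1556 held no match in the UTR read.

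**Figure D2:**
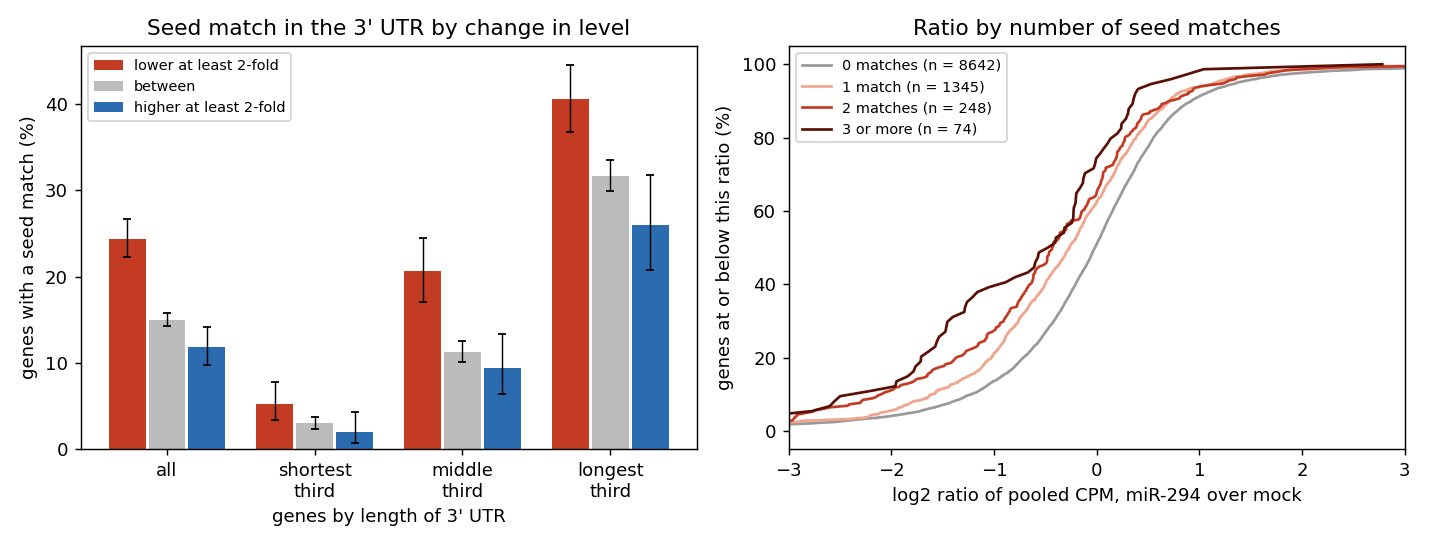
Left, the percentage of genes whose 3′ UTR holds AGCACTT among genes at least 2-fold lower, between and at least 2-fold higher after miR-294, for all genes and by 3 classes of UTR length, with exact 95% binomial intervals. Right, the cumulative distribution of the log2 ratio by number of matches, with the curve for 0 matches (n = 8642) farthest to the right.

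The genes with the lowest ratios among those with at least 50 pooled CPM in mock cells ranged widely in function. Of the 234 candidates, the 10 lowest were Plcd1, Lefty1, Znfx1, Dazap2, Zfp948, Adnp, Krt17, the pseudogene Rps6-ps4, Mast2 and Msln. Plcd1, a phospholipase C, had 50.5 CPM over mock cells and 3.36 CPM after miR-294 (log2 ratio -3.91), and its highest cell had 343 CPM in mock and 63.9 CPM after miR-294. Lefty1, a secreted inhibitor of Nodal signalling, had 0, 21.5 and 1828 CPM in the lowest, median and highest mock cell and 0, 0 and 218 CPM after miR-294. Its pooled level was 154 CPM against 15.7 CPM, a log2 ratio of -3.29, and most miR-294 cells had no count of it. It was as low in the let-7 cells, at 15.4 CPM. Znfx1, an RNA helicase with a zinc finger, had 97.7 CPM against 12.9 CPM (-2.92) and 2 seed matches. Adnp, a homeobox chromatin factor, had 59.1 CPM against 9.09 CPM (-2.70). Not all of these genes were widely detected: Plcd1 and Adnp were each found in 50% of mock cells, and in 10.5% and 21.1% of miR-294 cells. Krt17, a type I keratin, and Msln, the surface glycoprotein mesothelin, had 233 CPM against 39 CPM (-2.58) and 141 CPM against 26.9 CPM (-2.39). Both were nearly absent from wild type cells, at 0.164 and 1.23 CPM. Reads of Rps6-ps4 and of the functional Rps6 gene may be shared between them, so its value of 90.2 CPM against 15.5 CPM, with 16.6 CPM in let-7 cells, is uncertain.

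Of the 91 candidates on the other side, the 10 highest were Zscan4d, Zscan4c, Rangrf, Wdr24, Mcph1, Cenpa, Slc7a3, Snrnp25, Surf2 and Pabpc4. The Zscan4 genes, which mark a rare 2-cell-like state of stem cell cultures, rested on few cells and are described with that state below. Rangrf encodes a guanine nucleotide release factor that binds the GTPase Ran. It had 0, 0 and 137 CPM in the lowest, median and highest mock cell and 0, 59.6 and 266 CPM after miR-294, and 56 of 57 miR-294 cells lay above the mock median. Its pooled level was 10.8 CPM against 66.2 CPM (log2 ratio 2.61), next to 69 CPM in wild type cells. Slc7a3, a transporter of cationic amino acids, had 0, 0 and 781 CPM in mock cells and 0, 118 and 668 CPM after miR-294. Its pooled level was 46.7 CPM against 165 CPM (1.82), with 446 CPM in wild type and 142 CPM in let-7 cells. Cenpa, the histone H3 variant of centromeres, had 17 CPM against 64.6 CPM (1.93), and Mcph1, which acts in chromosome condensation, 13.9 CPM against 60.4 CPM (2.11). Pabpc4, a cytoplasmic poly(A)-binding protein, had 21.6 CPM against 73.2 CPM (1.76), and Snrnp25, a protein of the minor spliceosome, 22.2 CPM against 77.2 CPM (1.80). In each of Snrnp25 and Pabpc4 at least 54 of 57 miR-294 cells were above the mock median. Wdr24, a subunit of the GATOR2 complex that activates mTORC1, had 13.3 CPM against 72.1 CPM (2.44), but its median was 0 in both groups. In the annotation, exons of Twf1 and Irak4, of Rangrf and Slc25a35, of Timm9 and Tomm20l, and of Surf2 and its neighbours Surf1 and Surf4 overlap on opposite strands, and whether strand was used in counting is not given in the sources used here.

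Genes of translation were higher together and by small amounts. Of 82 cytosolic ribosomal protein genes tested, 81 had a log2 ratio above 0, with a median of 0.39. Only Rpl12 was past 2-fold (21 against 52.3 CPM, log2 ratio 1.31), and Rpl5, at 157 against 106 CPM (-0.57), was the exception in sign. Summed in each cell, they took 29660 to 95440 CPM (median 54650) in mock cells and 50090 to 110000 CPM (median 66940) after miR-294, and 53 of 57 miR-294 cells were above the mock median. The 42 genes of ribosome biogenesis showed the same with less overlap. Their sum ran from 2230 to 11840 CPM (median 8239) in mock cells and from 7269 to 15440 CPM (median 11190) after miR-294, with 56 of 57 cells above the mock median. Of these, 38 had a ratio above 0 (median 0.45), 16 were past 1.5-fold higher and none past 1.5-fold lower. Over all genes 17.6% were past 1.5-fold higher and 26.6% past 1.5-fold lower. Gar1, a component of H/ACA small nucleolar ribonucleoproteins, and Utp15, of the small-subunit processome, were past 2-fold, at 2.86 against 7.23 CPM (1.34) and 45.6 against 99.1 CPM (1.12). Of 76 mitochondrial ribosomal proteins 61 were above 0 (median 0.40), 24 were past 1.5-fold higher, and 54 of 57 cells lay above the mock median in the summed level. Mrpl11 (33.8 against 84 CPM) and Mrps11 (26.3 against 54.9 CPM) were past 2-fold. Genes past 2-fold higher were fewer in these lists than the 8.31% over all genes. Their shares were 1.22% for cytosolic ribosomal proteins, 4.76% for ribosome biogenesis and 2.63% for mitochondrial ribosomal proteins. Elongation factors and other mRNAs with a 5′ terminal oligopyrimidine tract differed less, with a median of 0.20 over 20 genes and Cnbp highest at 712 against 1312 CPM (0.88). Every mRNA of this kind is measured relative to the total of its cell, and a change in RNA per cell is not seen in CPM. Rises of this size were not particular to translation. Iron handling had 9 of 14 genes above 0 (median 0.39), splicing factors 26 of 37 (0.19) and the proteasome 29 of 39 (0.21). In the sum of each, at least 48 of 57 miR-294 cells were above the mock median. The median over all genes also rose with level, from -0.21 under 10 CPM to 0.06 at 100 CPM or more.

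**Figure D3:**
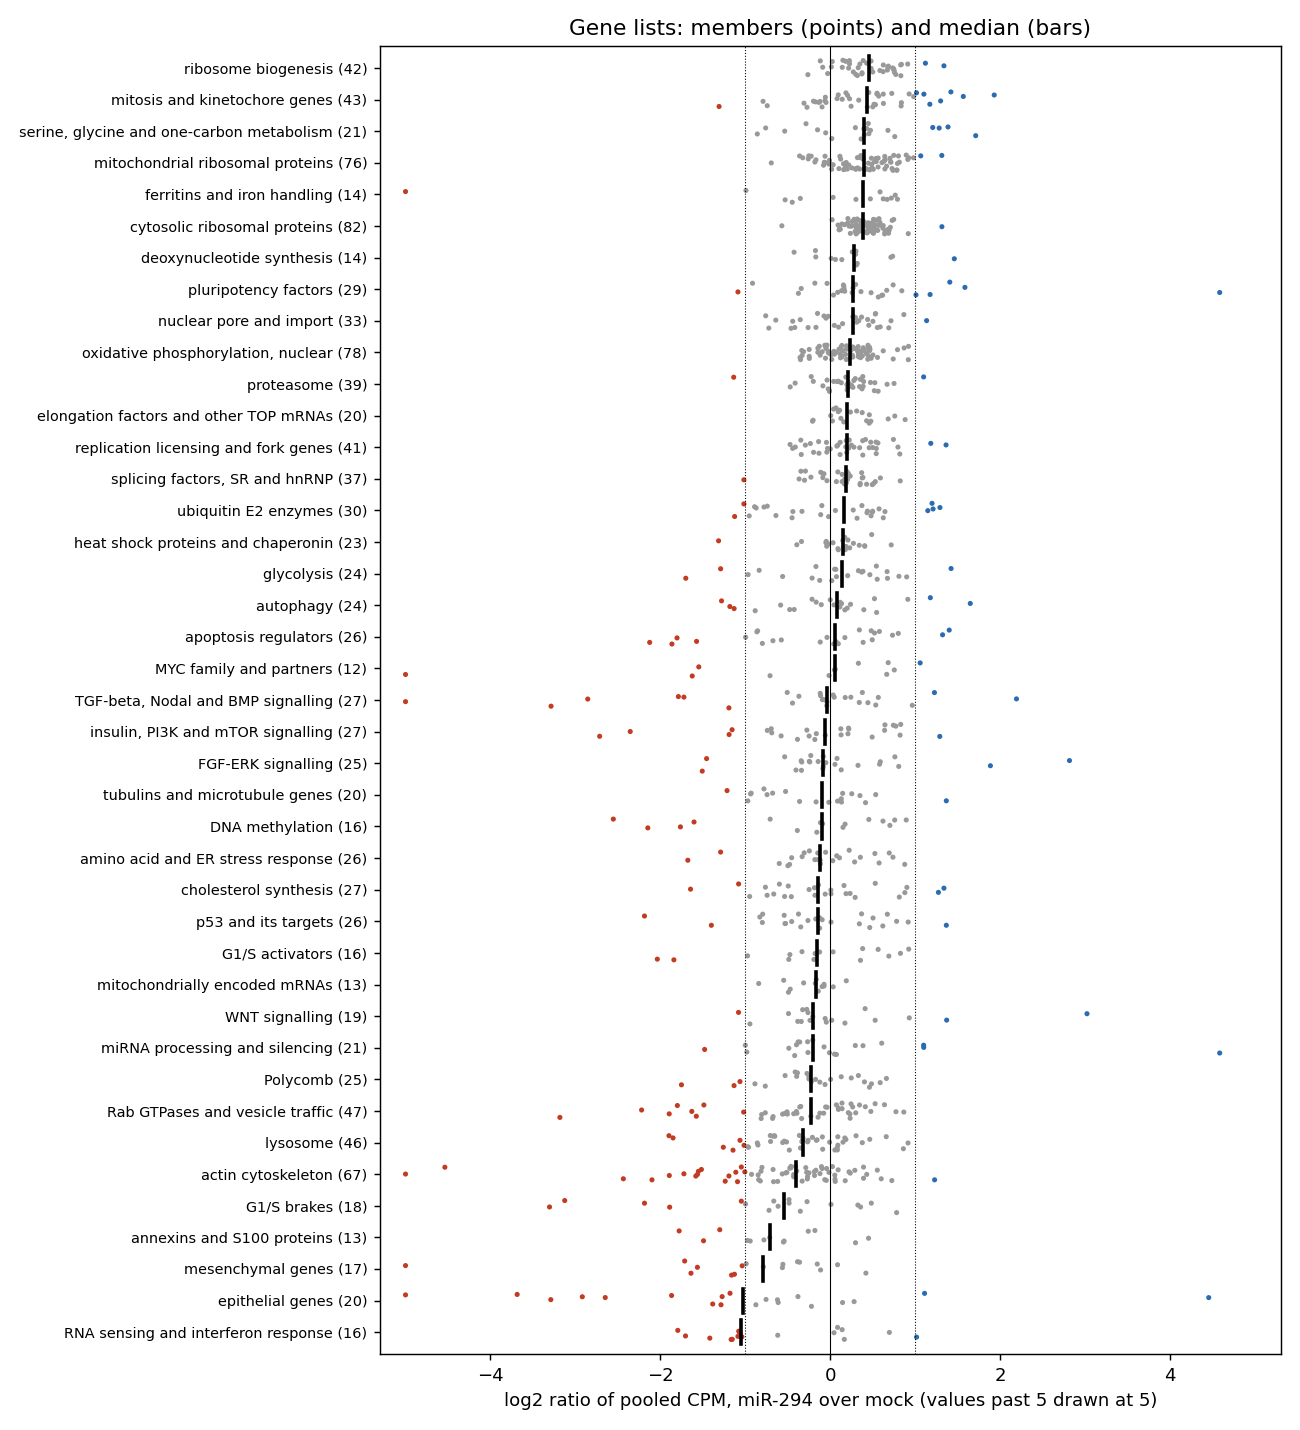
Log2 ratio of pooled CPM, miR-294 over mock, for the tested members of 41 gene lists (points) with the median of each list (bars) and the number of members in brackets. Dotted lines mark 2-fold, red points are past it lower and blue points past it higher, and values past 5 are drawn at 5. Ribosome biogenesis has the highest median (0.45) and RNA sensing and interferon response the lowest (-1.05).

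Genes of mitosis and of DNA synthesis were mostly higher. Of 43 genes of mitosis and the kinetochore, 30 had a ratio above 0 (median 0.44), 7 were at least 2-fold higher (16.3%, against 8.31% of all genes) and 1 at least 2-fold lower. Plk1, the kinase that drives mitotic entry, had 42.6 CPM in mock cells and 114 CPM after miR-294 (1.42), Nek2, a centrosomal kinase, 8.22 against 24.3 CPM (1.57), and Cenpa was highest. The gene on the other side was Cdc25b, a phosphatase that activates CDK1, at 34.7 against 14 CPM (-1.31). The sum over the list varied greatly among mock cells, from 427 to 14500 CPM (median 4300), and ran from 1183 to 14640 CPM (median 5841) after miR-294, with 44 of 57 cells above the mock median. Replication genes differed less, with a median of 0.19 over 41 genes. Chaf1a, of the chromatin assembly factor CAF-1, and Orc1, of the origin recognition complex, were past 2-fold higher at 32.5 against 83.6 CPM (1.36) and 68.8 against 156 CPM (1.18), and no replication gene was past 1.5-fold lower. Of 14 genes of deoxynucleotide synthesis, Dctpp1, which removes modified dCTP, was past 2-fold, at 39.2 against 108 CPM (1.46), and the list median was 0.28. Serine, glycine and one-carbon genes, which feed nucleotide synthesis, had a median of 0.40 over 21 genes. None was 2-fold lower and 4 were 2-fold higher (19.05%, against 8.31% of all genes). These were Shmt1 (81.9 against 268 CPM, 1.71), Shmt2 (80.8 against 211 CPM, 1.39), Phgdh (49.6 against 115 CPM, 1.21) and Gldc (5.03 against 12.2 CPM, 1.28). Shmt1 and Shmt2 encode the serine hydroxymethyltransferases and Phgdh the first enzyme of serine synthesis. Gldc, of the glycine cleavage system, rested on 1 cell, and its ratio without the highest cell of each group was -0.10.

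The brakes of the G1/S transition were lower. Of 18 such genes tested, 5 were at least 2-fold lower (27.8%, against 15.3% of all genes), none 2-fold higher, and the median was -0.55. Rbl2, the retinoblastoma-related protein p130, had 35.4 CPM against 4.05 CPM (-3.13), and it was detected in 46.7% of mock and 19.3% of miR-294 cells. Cdkn2b, an inhibitor of CDK4 and CDK6, had 8.67 against 0.877 CPM (-3.31) and was detected in 11.7% and 10.5% of cells. Cdkn1c, at 7.22 against 1.95 CPM (-1.89), turned to 2.10 without the highest cell of each group. Without mock cells 3, 78 and 96 the ratio of Cdkn2b was -1.70. Without these cells 4 brakes were 2-fold lower and 2 were 2-fold higher, and the list median was -0.44. The activators of G1/S did not differ in 1 direction, with a median of -0.15 over 16 genes. Among them Ccnd2, cyclin D2, was lower at 26.8 against 6.53 CPM (-2.04), Ccnd1, cyclin D1, had 329 against 168 CPM (-0.97), and Cdc25a, a phosphatase that activates CDK2, 51.7 against 91.6 CPM (0.83). The MYC network did not differ in 1 direction. Of 12 genes 7 were above 0 (median 0.05), 3 were 2-fold lower (25%, against 15.3% of all genes) and 1 was 2-fold higher (8.33%, against 8.31%). Their summed level had a median of 643 CPM in mock and 635 CPM in miR-294 cells. In that sum 30 miR-294 cells lay below the mock median and 27 above it. The gene past 2-fold higher was Myc itself, at 6.38 against 13.3 CPM (1.06). Its antagonists Mnt (21.1 against 7.21 CPM, -1.55) and Mxi1 (11.7 against 3.79 CPM, -1.62) were among those lower. Mxd4, another antagonist, had 711 counts over the mock cells and 0 over the miR-294 cells. With a floor of 3 counts for the group it was 225-fold lower, a value that depends on that floor.

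Pluripotency factors were, on balance, slightly higher. Of 29 genes, 23 had a ratio above 0 (median 0.27). Past 2-fold, 5 were higher (17.2%, against 8.31% of all genes) and 1 was lower (3.45%, against 15.3%). Tcl1, a co-activator of Akt, had 58.7 against 176 CPM (1.58), Utf1, a chromatin factor of undifferentiated cells, 46.8 against 124 CPM (1.41), and Nr0b1, an orphan nuclear receptor, 43.2 against 97.6 CPM (1.18). Stat3, which carries the LIF signal, was the 1 past 2-fold lower, at 99.5 against 46.8 CPM (-1.09). Lin28a, the RNA-binding protein that blocks let-7 maturation, had the highest ratio of the list. Its median was 0 in both groups and its highest cell had 64.7 CPM in mock and 192 CPM after miR-294, and the pooled level was 1.09 against 26.1 CPM (4.58), next to 215 CPM in wild type cells. Lin28a also belongs to the list of miRNA processing and silencing, where Dicer1 (31.7 against 67.9 CPM, 1.10) and Tarbp2 (51.1 against 110 CPM, 1.10) were higher and Ago1 (57.1 against 20.5 CPM, -1.48) was lower. The stem cell markers named above, which overlap this list, had ratios from 0.09 (Dppa5a) to 0.74 (Esrrb, 125 against 208 CPM).

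The 2-cell-like genes were high in single cells. The sum over Zscan4c, Zscan4d and the other 3 markers found was at 0 in 42 of 57 miR-294 and 49 of 60 mock cells. It reached 100 CPM in 2 miR-294 cells and 1 mock cell. The highest miR-294 cell had 18920 CPM and the highest mock cell 232 CPM. Zscan4c accordingly had 3.66 CPM over mock and 188 CPM over miR-294 cells (log2 ratio 5.68), and 3.30 without the highest cell of each group, and the let-7 cells had 978 CPM. Zscan4 genes are near-identical copies between which reads can be split, so the share of each is uncertain. Of 8 tested genes of this state 7 were 2-fold higher, with a median of 5 that was 1.16 without the highest cell of each group, so the list describes mainly 1 cell.

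Genes of the actin cytoskeleton and annexins were lower on balance, while tubulins and microtubule genes were not, with a median of -0.09 over 20 genes. Of 67 genes of the actin cytoskeleton, 51 had a ratio below 0 (median -0.41), 16 were 2-fold lower (23.9%, against 15.3% of all genes) and 1 was 2-fold higher. Gsn, the actin-severing protein gelsolin, had 33.7 against 1.45 CPM (-4.54) and Tagln, transgelin, 9.41 against 0.171 CPM (-5.78), but they were detected in 18.3% and 8.33% of mock cells. Rhoc, a GTPase that controls stress fibres, was more widely detected, in 68.3% of mock and 36.8% of miR-294 cells, and had 28.3 against 5.23 CPM (-2.44). Subunits of the Arp2/3 complex stood on the other side, with Arpc1a at 56.1 against 132 CPM (1.23) and Arpc4 at 149 against 245 CPM (0.72). Of 13 annexin and S100 genes, whose products bind calcium and membranes, 11 were below 0 (median -0.71) and 3 past 2-fold (23.1%, against 15.3% of all genes). Anxa3, for instance, had 208 against 74 CPM (-1.49), with 9.57 CPM in wild type cells. The summed annexin and S100 level was 600 to 7605 CPM (median 2311) in mock and 353 to 3638 CPM (median 1492) in miR-294 cells, 51 of which lay below the mock median. The highest mock value belongs to 1 of the 3 cells that stood apart. Without them the highest was 6449 CPM and the list median -0.57.

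Mesenchymal and epithelial genes were both lower. Of 17 mesenchymal genes 15 were below 0 (median -0.79), 7 were 2-fold lower (41.2%, against 15.3% of all genes) and none 2-fold higher. Itga5, the fibronectin receptor subunit, had 49.8 against 16.9 CPM (-1.56), and Snai1, a repressor of E-cadherin, 8.64 against 2.77 CPM (-1.64, or -0.98 after thinning to equal depth). Tgfbr2, a receptor for TGF-beta, had 859 counts over the mock cells and 2 counts over the miR-294 cells (8.21 against 0.0202 CPM), and it was detected in 11.7% of mock cells. Their sum was 526 to 3700 CPM (median 1412) in mock and 340 to 1969 CPM (median 872) in miR-294 cells, with 51 of 57 below the mock median. Of 20 epithelial genes 10 were 2-fold lower (50% against the same 15.3%) and 2 were 2-fold higher (10%, against 8.31%). The median was -1.03, and the ratios ran from -5.14 to 4.46. Cldn7 and Cldn3, claudins of tight junctions, had 5.32 against 0.151 CPM (-5.14) and 14.7 against 1.14 CPM (-3.69, or -1.86 without the mock cells that stood apart). This list rested in good part on the mock cells that stood apart. One of them held 12250 CPM of its genes against at most 3847 CPM in the other 57 mock cells, and without the 3 cells 4 of the 20 genes were 2-fold lower, beside 1602 of all 11186, and the median was -0.44. The summed level, whose median is little touched by 3 cells, was 1285 CPM in mock and 902 CPM in miR-294 cells, and 50 of 57 miR-294 cells were below the mock median.

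Lysosomal genes had a lower summed level, though the share past 2-fold was no larger than over all genes. Of 46 lysosomal genes, 6 were 2-fold lower (13.04%, against 15.3% of all genes) and none 2-fold higher, and the median was -0.32. Lamp2, a major membrane protein of the lysosome, had 375 against 104 CPM (-1.85), next to Scpep1. On the other side Glb1, beta-galactosidase, had 59 against 111 CPM (0.92). The summed lysosomal level was 3838 to 29940 CPM (median 7388) in mock and 3303 to 10990 CPM (median 5441) in miR-294 cells, with 52 of 57 below the mock median. The highest mock value belongs to 1 of the 3 cells that stood apart, and without them the highest was 12540 CPM and the list median -0.21. Among 47 genes of Rab GTPases and vesicle traffic, 8 were 2-fold lower (17.02%, close to the 15.3% of all genes) and none 2-fold higher, with a median of -0.23. Rab22a, of early endosomes, had 34.7 against 7.45 CPM (-2.22). Rab15 had the lowest ratio (17.9 against 1.97 CPM, -3.18) but was detected in 10% of mock cells, and its ratio was -1.40 without the 3 cells. In autophagy the median was 0.08 over 24 genes, with Becn1 and Gabarap lower (38.4 against 16.9 CPM, -1.18, and 109 against 49.7 CPM, -1.13) and Wipi2 higher (34.5 against 108 CPM, 1.65).

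Signalling pathways held members past 2-fold in both directions, with medians between -0.21 and -0.04. Of 27 genes of TGF-beta, Nodal and BMP signalling, 6 were 2-fold lower (22.2%, against 15.3% of all genes). Past 2-fold higher were 2 (7.41%, against 8.31%), and the median was -0.04. Lefty1 was among those lower, and Id1, a target of BMP signalling, had 51.9 against 15.0 CPM (-1.79). Acvr2b, an activin receptor, was higher at 2.69 against 12.3 CPM (2.19). Of 25 genes of FGF-ERK signalling 2 were 2-fold lower (8%, against 15.3% of all genes) and 2 were 2-fold higher (8%, against 8.31%). Those lower were Sos1, which loads Ras with GTP (75.6 against 26.6 CPM, -1.51), and Mapk3, the kinase ERK1 (22.4 against 8.16 CPM, -1.46). Those higher were Etv4 and Egr1, transcription factors induced by ERK (3.94 against 14.5 CPM, 1.89, and 2.27 against 16 CPM, 2.82). In the insulin, PI3K and mTOR list, 4 of 27 genes were 2-fold lower (14.8%, under the share of all genes). Pik3r1 and Pik3cb, subunits of PI3 kinase, had 21 against 3.20 CPM (-2.71) and 42.4 against 8.30 CPM (-2.35), Foxo1 59.8 against 26.9 CPM (-1.16) and Rictor, of mTORC2, 46.9 against 20.5 CPM (-1.19). Mlst8, shared by both mTOR complexes, was the 1 gene 2-fold higher (3.70%, against 8.31% of all genes), at 9.96 against 24.3 CPM (1.29). In WNT signalling 1 of 19 genes was 2-fold lower (5.26%, against 15.3% of all genes) and 2 were 2-fold higher (10.5%, against 8.31%). Tcf7l2 had 146 against 69 CPM (-1.08), and Ctnnbip1, an inhibitor of beta-catenin, 0.908 against 7.38 CPM (3.02).

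Genes of RNA sensing and the interferon response were scarce in both groups and lower after miR-294. Of 34 found, 16 were tested, 9 of them 2-fold lower (56.2%) and 1 2-fold higher (6.25%), with a median of -1.05. Over all genes 15.3% were 2-fold lower and 8.31% higher, and under 10 CPM 27.4% were lower. Irf1, a transcription factor of the interferon response, had 61.3 against 22.9 CPM (-1.42, or -0.80 with the first run of each cell alone), and B2m, the light chain of MHC class I, 56.1 against 25 CPM (-1.17). Psmb8, of the immunoproteasome, had 10.8 against 3.32 CPM (-1.70), and in the proteasome list its activator Psme2 was the lowest, at 152 against 69.1 CPM (-1.14). Adar, which edits double-stranded RNA, was the 1 gene 2-fold higher, at 24.1 against 48.8 CPM (1.02), and it was under 2-fold without the highest cell of each group (0.97). The summed level overlapped widely, at 145 to 1785 CPM (median 625) in mock and 97.3 to 1194 CPM (median 517) in miR-294 cells, 39 of which lay below the mock median. Among 26 apoptosis regulators 4 were 2-fold lower (15.4%, near the 15.3% of all genes) and 2 were 2-fold higher (7.69%, against 8.31%), with a median of 0.05. Those lower were Casp2, an initiator caspase (65.2 against 14.9 CPM, -2.13), Fadd and Ripk1, which act at death receptors (19 against 5.22 CPM, -1.86, and 36.8 against 10.5 CPM, -1.80), and Bcl2l11, the BH3 protein Bim (15.7 against 5.28 CPM, -1.57). Of 26 p53 genes 2 were 2-fold lower (7.69%, under the share of all genes) and 1 was 2-fold higher (3.85%, against 8.31%). Those lower were Cdkn1a and Ei24 (56.6 against 21.4 CPM, -1.40), and Aen, an exonuclease, was the 1 higher (43.4 against 112 CPM, 1.37).

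Among chromatin genes the DNA methylation list split. Zbtb38, a methyl-CpG-binding protein and the most abundant member past 2-fold, had 773 against 254 CPM (-1.60). Tet3 (12.9 against 2.19 CPM, -2.55) and Mbd2 (6.30 against 1.85 CPM, -1.76) were lower as well, and 4 of 16 genes in all (25%, against 15.3%) were past 2-fold lower. The methyltransferase Dnmt3b (49.9 against 84.5 CPM, 0.76) and its cofactor Dnmt3l (296 against 481 CPM, 0.70) lay on the other side, short of 2-fold. Of 25 Polycomb genes 3 were 2-fold lower (12%, under the share of all genes), with Ezh1, a histone H3 lysine methyltransferase, at 43.8 against 19.96 CPM (-1.13). Nuclear genes of oxidative phosphorylation were mostly higher by small amounts, and the summed mitochondrially encoded mRNAs were lower. Of 78 nuclear genes of oxidative phosphorylation 57 were above 0 (median 0.24) and none was past 2-fold, and of 13 mitochondrially encoded mRNAs 11 were below 0 (median -0.16), also with none past 2-fold. The summed level of the nuclear genes had a median of 14700 CPM in mock and 16150 CPM in miR-294 cells, with 45 of 57 above the mock median. For the mitochondrially encoded mRNAs it was 32460 CPM in mock and 19610 CPM in miR-294 cells. Here 46 of 57 miR-294 cells were below the mock median, with wide overlap. The share of counts on the mitochondrial mRNAs was 0.640% to 9.74% (median 1.96%) after miR-294 and 0.00539% to 14.7% (median 3.25%) in mock cells, the lowest value being that of mock cell 3. Glycolysis had a median of 0.14 over 24 genes, with Pfkm, the muscle form of phosphofructokinase, lower (94.6 against 29.1 CPM, -1.70) and Pfkl, the liver form, at 98.6 against 173 CPM (0.81). The remaining lists (cholesterol synthesis, amino acid and ER stress, heat shock proteins, proteasome, tubulins, splicing factors, iron handling, E2 enzymes, nuclear pore and lineage markers) had medians between -0.14 and 0.39. Of the feeder fibroblast list 1 gene was tested, Fbn1, which encodes fibrillin and was detected in 8.33% of mock and 5.26% of miR-294 cells (log2 ratio -2.75).

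Families of genes whose symbols share a stem were compared without regard to the lists. Over all genes, for comparison, 15.3% were 2-fold lower and 8.31% 2-fold higher. Among 106 families with at least 10 tested members, the lowest medians were those of Ptpn, the non-receptor tyrosine phosphatases (-0.91 over 13 genes, 5 past 2-fold lower), and Myo, the myosins (-0.78 over 18 genes, 7 past 2-fold lower and none higher). Myo1a had 37.3 against 1.53 CPM (-4.61) and Myo18a 28.3 against 6.22 CPM (-2.18), and Ptpn12 had 39.5 against 12 CPM (-1.72). At the other end stood Hist, the replication-dependent histones (0.73 over 13 genes), Commd (0.54 over 10), Mrpl (0.42 over 48), Rpl (0.42 over 49) and Polr, the RNA polymerase subunits (0.40 over 28, 5 past 2-fold higher and none lower). Polr2m had 55 against 142 CPM (1.37) and Polr2d 50.5 against 120 CPM (1.25). Lsm, the ring proteins of small nuclear RNAs and of mRNA decay, had a median of 0.36 over 13 genes with 4 past 2-fold higher, among them Lsm4 (32.5 against 74.7 CPM, 1.2) and Lsm2 (20.6 against 45.9 CPM, 1.15). Most of these histone mRNAs end in a stem-loop and not in a poly(A) tail. The large families Zfp (305 genes), Slc (176) and Tmem (131) had medians of -0.09, -0.13 and -0.02.

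To compare detection, each cell was thinned at random to 500000 counts. After thinning, 5855 to 8824 genes (median 7260, mean 7182 ± 703 SD, n = 57) were detected per miR-294 cell and 5618 to 9070 (median 7132.5, mean 7085 ± 797 SD, n = 60) per mock cell, so the number of genes per cell differed by less than its spread. Single genes differed more. In 205 genes (1.83% of those tested) the share of cells with at least 1 count was higher by at least 25 percentage points after miR-294, and in 175 (1.56%) it was lower by as much.

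The largest difference upward was that of Rangrf, found in 19 of 60 mock cells (31.7%, exact binomial 95% interval 20.3 to 44.96) and in 56 of 57 miR-294 cells (98.2%, 90.6 to 100). Timm9, a chaperone of the mitochondrial intermembrane space, was next, at 23.3% and 77.2% of cells and 4.70 against 18.5 CPM. Lin28a was found in 2 mock and 26 miR-294 cells, 3.33% and 45.6%. Snrnp25 was found in 53.3% and 94.7% of cells, H2afx, the histone variant phosphorylated at DNA breaks, in 50% and 91.2% (11.1 against 39.99 CPM), and Dnajc27, a J-domain protein of the Rab type, in 13.3% and 52.6% (6.26 against 36.2 CPM). None of these but Dnajc27 holds the seed match in its 3′ UTR. The largest differences downward were those of Casp2 (75% and 28.1%), the muscle enolase Eno3 (76.7% and 29.8%, 71.6 against 21.3 CPM), Elmo1, an activator of Rac (61.7% and 15.8%, 46 against 6.18 CPM), Wls, which carries Wnt proteins to the cell surface (63.3% and 17.5%, 49.5 against 9.92 CPM), Lefty1 (71.7% and 26.3%) and Msln (73.3% and 28.1%). Casp2, Elmo1 and Lefty1 hold the seed match, and Eno3, Wls and Msln do not. Without UMIs a gene at 1 count and a gene lost in amplification are not told apart.

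**Figure D4:**
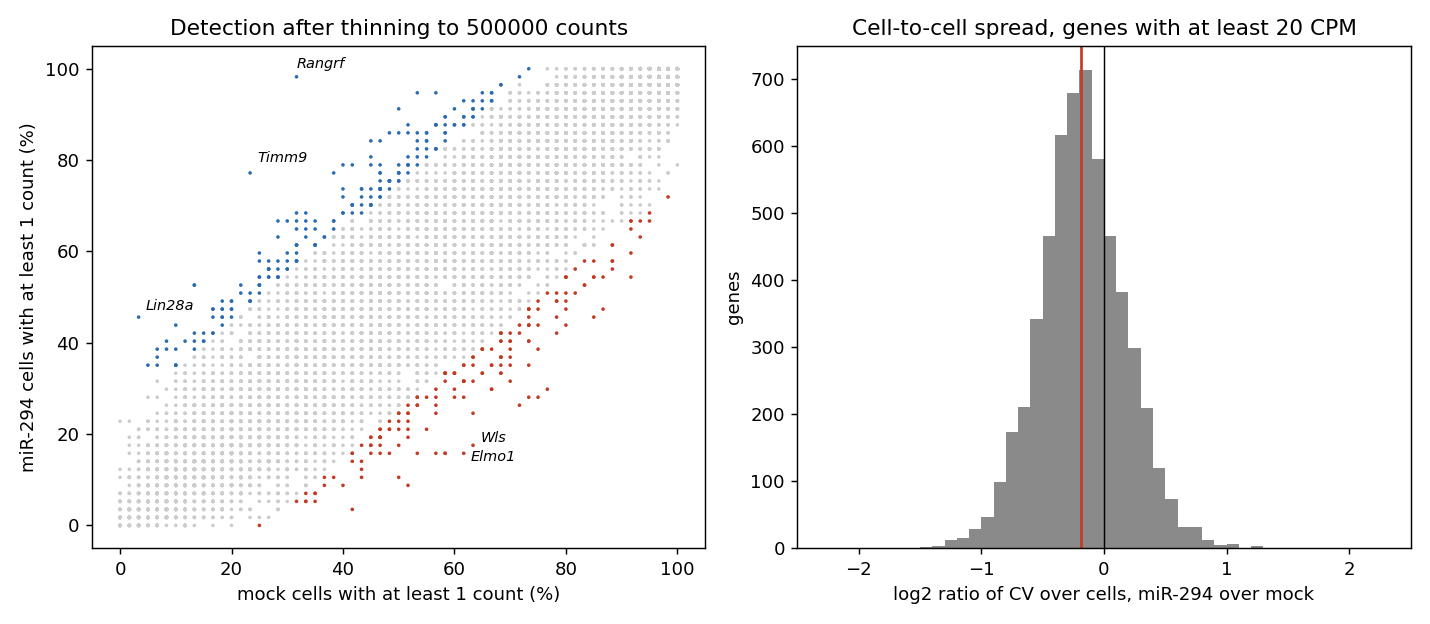
Left, for each tested gene the percentage of miR-294 cells against the percentage of mock cells with at least 1 count after thinning, with differences of at least 25 percentage points in blue (205 higher) and red (175 lower). Right, the number of genes by log2 ratio of the coefficient of variation over cells, miR-294 over mock, with the median of -0.18 as a red line to the left of 0.

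Expression was more uniform over miR-294 cells than over mock cells. For 5625 genes with at least 20 CPM in both groups, the coefficient of variation (CV, SD over mean) of thinned CPM was lower after miR-294 in 3984, with a median log2 CV ratio of -0.18. For 1723 genes with at least 100 CPM it was lower in 1348 (median -0.23), and without mock cells 3, 78 and 96 it was lower in 3761 of 5616 genes (median -0.15). Cells also resembled each other more. The median r of log2 CPM between a cell and the rest of its group was 0.531 to 0.655 (median 0.617) after miR-294 and 0.421 to 0.611 (median 0.565) in mock cells. In 36 of 41 lists with at least 10 tested members the CV of the summed level was lower in miR-294 cells, and in 33 of 41 without the 3 mock cells. For nuclear oxidative phosphorylation genes it was 0.205 in mock cells (0.184 without the 3) and 0.120 after miR-294, for glycolysis 0.435 (0.413) and 0.257, for replication genes 0.369 (0.329) and 0.228 and for mitosis genes 0.661 (0.644) and 0.463. The G1/S brakes went the other way, at 0.415 (0.406) and 0.712. Amino acid and ER stress genes (0.220 and 0.2575) and p53 genes (0.333 and 0.390) did so too. The miRNA processing (0.260 and 0.303) and TGF-beta (0.309 and 0.347) lists did as well. All 6 brakes with at least 20 CPM in both groups had the higher CV after miR-294, while 3984 of all 5625 genes had the lower. Read against genes of like level in the same group, the median log2 CV ratio of these 6 was 0.28. The sum of the brakes was 3434 CPM in the highest miR-294 cell, against a median of 580 CPM, and 1994 CPM in the highest mock cell. Their CV without that miR-294 cell was not computed. As the 2 groups come from different circuits, spread that arises in capture and amplification and spread between cells cannot be told apart.

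A lower mean goes with a larger CV, so each gene's CV was also read against genes of like level in its own group. On that scale Twf1 and Dazap2 were more dispersed after miR-294, with CVs of 0.355 and 0.450 for Twf1 (level-adjusted log2 ratio 0.63) and 0.386 and 1.14 for Dazap2 (0.71). Scpep1 (-0.10) and Cdkn1a (-0.39) were not. The genes with the highest level-adjusted ratios of CV were Glrx2, a mitochondrial glutaredoxin, Mt2, a metallothionein, Dst, a cytoskeletal linker, mt-Atp8, Klf2, a pluripotency factor, and Lars2, a mitochondrial leucyl-tRNA synthetase. Mt2 had almost the same pooled level in the groups, 260 and 261 CPM, but ran from 50.2 to 574 CPM (median 260) in mock cells and from 43.7 to 2382 CPM (median 183) after miR-294, and its CV was 0.522 and 1.2. Glrx2 rested on 1 miR-294 cell with 1829 CPM, and its log2 ratio of 0.54 turned to -1.26 without the highest cell of each group. Those with the lowest were Pitpna, Gusb, Anxa1, Pkd2, Cldn4 and Cpe, all with mock cells far above the rest. Pitpna, which carries phosphatidylinositol, reached 2203 CPM in a mock cell against a median of 13.7 CPM, and Gusb, the lysosomal beta-glucuronidase, 2064 CPM against 1.19 CPM. Without the highest cell of each group the log2 ratio of Gusb was -0.21 in place of -1.06 and that of Cpe, carboxypeptidase E, -0.08 in place of -0.68. Without mock cells 3, 78 and 96 both turned, to 0.06 and 0.29, so no direction in level holds for these genes. In the same setting Anxa1 was at -0.84 in place of -1.78 and Cldn4 at -0.68 in place of -1.38.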

How the data were processed

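Single cells were captured on the Fluidigm C1 and libraries made with Nextera XT. For each run the authors aligned reads with RSEM 1.2.19 to Gencode M4 transcripts and deposited an expected count and an FPKM per gene. The genome build was not given in the sources used here. FPKM, normalized by the authors for length and depth, was not used. Where a cell had several runs, their expected counts were added, then rounded. The authors had removed shallow cells and 1 miR-294 cell whose targets were not lower. Genes averaging 5 or more counts per cell (11186) were kept. Pooled CPM is the summed count of a group over its summed total, and log2 ratios used a floor of 3 counts. Poisson and binomial intervals are exact at 95%. Detection and CV used cells thinned to 500000 counts. TMM factors came from edgeR 4.0.16 (R 4.3.3), and other steps ran in Python with numpy and scipy. The steps were tested on simulated data.

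With 1 sample per condition no test was made. Levels, shares of cells and CV were compared between groups, under alternatives of scaling, weight of cells, depth, single cells, runs, filter and fold. Those counting the near-identical pair as 2 cells and leaving out 3 mock cells were chosen after seeing the data. The members of the comparison, the 44 gene lists and the naming rules were chosen with earlier results of these data known. Named genes were Twf1, Dazap2, Scpep1 and Cdkn1a, the 10 lowest and 10 highest ratios among genes with at least 50 CPM in the higher group that kept 2-fold without the highest cell and in the mean of per-cell CPM, ends of each list, and the 6 largest changes each way in detection and in level-adjusted CV (running median over 501 genes). Genes at neither end of a list and family members were picked after their values were seen. 3′ UTRs were those of the Gencode M21 basic transcript with the longest coding sequence.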

Additional observations from a re-analysis of the deposited data

How the results depend on the processing

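Over the alternatives that changed scaling, weight of cells, depth, runs or single cells, the number of genes 2-fold lower ran from 1552 to 1855 and of those 2-fold higher from 856 to 1083. Without a filter on low counts they were 4298 and 3263, at 1.5-fold 2971 and 1971 and at 3-fold 830 and 402, as the wider or narrower rule makes them. Genes with a share of cells higher or lower by 25 percentage points stayed within 1.5-fold of the numbers reported, the difference in median genes per cell was 40 to 173, and the median log2 CV ratio was -0.23 to -0.15. Of the lower genes 28.98% held AGCACTT or GCACTTA in the 3′ UTR and 6.81% the 8-letter match, by their construction. Of 387 values of named genes 367 stayed within 1.5-fold of the value reported. Gusb and Cpe turned, to 0.0612 and 0.29, without the 3 mock cells lowest in stem cell markers, and Glrx2 turned to -1.26 without the highest cell of each group. Mt2 and Dst, whose ratios lay near 0, also changed sign. Of genes named from lists, Cdkn1c turned to 5.61 without the 3 mock cells and to 2.10 without the highest cell of each group, where Gldc turned to -0.10. TMM and median-of-ratios scaling raised every log2 ratio by 0.07 and 0.06. No paired analysis was possible because the rep numbers mark sequencing runs of a cell and no label links cells across conditions. Depth limits genes under about 10 CPM, where a few cells decide a ratio.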
